A study of Mus musculus with 14 samples.

Results

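The collagen modification, folding and secretion machinery was followed as 32 named genes among 21887 mouse protein-coding genes. The 32 were listed by name and not picked by a measured value, though earlier results of these data were known. Each was given the peaks that overlapped its gene span extended by 1 kb on both sides. They comprised 11 hydroxylases, 2 galactosyltransferases, 5 chaperones and foldases, 5 crosslinking enzymes, 4 propeptide-processing proteins and 5 secretion genes. The cells were ATDC5, a mouse chondrogenic line derived from a teratocarcinoma, so that every sample came from 1 established line. Chromatin immunoprecipitation followed by sequencing (ChIP-seq) was performed for H3K4me3, a histone mark found at promoters, and for RUNX2, a transcription factor of skeletal cells.

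Undifferentiated cells maintained by passaging were the day 0 group. For the day 3 and day 10 groups, cells were spotted as dense droplets and then given medium with β-glycerophosphate and L-ascorbate-2-phosphate. Each antibody and day had 2 libraries, which gave 12 peak lists, and the 2 input libraries were not used here. Whether the 2 libraries of a group came from different cultures is not stated, and p-values therefore measure only the spread between these libraries. No RNA was measured, and a peak list gives no read depth, so a gene without a peak is a gene below the peak caller's threshold and not a gene shown to lack the mark.

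Newly made procollagen chains are hydroxylated on proline and lysine in the endoplasmic reticulum. Some hydroxylysines then receive sugars, and chaperones hold the chains until the triple helix has formed. Ascorbate is a cofactor of the hydroxylases and was part of the differentiation medium. Folded procollagen leaves in COPII-coated carriers that need the cargo receptor encoded by Mia3, its propeptides are cut off outside the cell, and lysyl oxidases crosslink the fibrils. CREB3L1 and CREB3L2 are membrane-bound transcription factors that are cleaved and act on genes of this export path, and defects in many of these genes cause brittle bone disease or other skeletal dysplasias.

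RefSeq promoters, each holding 250 bases before and 50 bases after a transcript start, were available for 21 of the 32 genes. These windows were searched on both strands for the RUNX core TGTGGT with its variant TGCGGT, for TGACGTG, an element of the CREB3 type, for CCACG, part of the endoplasmic reticulum stress element, and for the core of the hypoxia element, ACGTG. The CREB3-type element, TGACGTG, which contains the hypoxia core, occurred in 2.17% of 21263 protein-coding promoters. Among the 21 genes it occurred in 3, namely Mia3 (86 bases upstream of the start), Sec24d (26 bases upstream) and Sec23a (6 bases downstream). These 3 encode the cargo receptor and 2 components of the COPII inner coat, and Creb3l2, the other secretion gene with a listed promoter, had no match in this window. TGTGGT was present in 15.0% of all promoters and in those of Crtap (187 bases upstream), P4ha2 (161 bases upstream) and Plod3 (24 bases downstream). TGCGGT was present in 7.44% of all promoters and at Colgalt1, Crtap, P3h3, P4hb and Sec24d. CCACG was found at 14 of the 21 genes against 37.4% of all promoters, and ACGTG at 11 against 20.9%. A match of this kind describes the letters of the window only.

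The promoters of the 3 export genes are shown with TGACGTG in capitals, followed by Crtap and Plod3 with TGTGGT, or the reverse complement of TGCGGT, in capitals. Crtap had the strongest RUNX2 peaks of the 32 genes and Plod3 the highest-ranked H3K4me3 peaks of both day 0 lists. Loxl4, the gene with a longer H3K4me3 domain on day 10 than on day 3, is shown as a promoter without a match to either RUNX core or to the CREB3-type element. All are RefSeq sequences of build GRCm38.p6, printed 5′ to 3′ on the strand of the gene, at chr1:183369516-183369815 (minus strand), chr12:59011968-59012267 (minus), chr3:123267246-123267545 (plus), chr9:114390663-114390962 (minus), chr5:136986769-136987068 (plus) and chr19:42612757-42613056 (minus), in the order below.
Mia3: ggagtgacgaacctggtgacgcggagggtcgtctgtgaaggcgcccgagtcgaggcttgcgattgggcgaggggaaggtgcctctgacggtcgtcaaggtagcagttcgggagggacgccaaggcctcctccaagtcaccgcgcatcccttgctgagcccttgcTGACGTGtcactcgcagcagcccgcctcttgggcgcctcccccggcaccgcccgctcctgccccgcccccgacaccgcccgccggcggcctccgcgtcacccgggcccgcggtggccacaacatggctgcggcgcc
Sec23a: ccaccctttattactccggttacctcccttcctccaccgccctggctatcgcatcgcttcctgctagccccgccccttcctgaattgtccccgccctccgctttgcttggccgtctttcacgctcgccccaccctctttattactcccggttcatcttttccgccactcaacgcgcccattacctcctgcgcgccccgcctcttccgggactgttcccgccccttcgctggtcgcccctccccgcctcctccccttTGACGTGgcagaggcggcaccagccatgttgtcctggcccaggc
Sec24d: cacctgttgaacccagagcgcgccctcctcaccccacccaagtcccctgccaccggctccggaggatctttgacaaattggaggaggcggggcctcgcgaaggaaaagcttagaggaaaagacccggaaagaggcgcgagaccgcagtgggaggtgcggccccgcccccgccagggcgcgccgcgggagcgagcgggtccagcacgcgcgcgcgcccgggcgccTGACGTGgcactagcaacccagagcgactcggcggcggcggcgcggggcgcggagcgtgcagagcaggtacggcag
Crtap: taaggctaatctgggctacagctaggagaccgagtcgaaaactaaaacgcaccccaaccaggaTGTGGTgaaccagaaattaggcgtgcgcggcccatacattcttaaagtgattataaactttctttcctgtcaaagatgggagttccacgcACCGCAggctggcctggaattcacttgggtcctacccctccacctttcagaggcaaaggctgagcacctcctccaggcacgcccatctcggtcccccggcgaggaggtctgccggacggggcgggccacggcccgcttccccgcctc
Plod3: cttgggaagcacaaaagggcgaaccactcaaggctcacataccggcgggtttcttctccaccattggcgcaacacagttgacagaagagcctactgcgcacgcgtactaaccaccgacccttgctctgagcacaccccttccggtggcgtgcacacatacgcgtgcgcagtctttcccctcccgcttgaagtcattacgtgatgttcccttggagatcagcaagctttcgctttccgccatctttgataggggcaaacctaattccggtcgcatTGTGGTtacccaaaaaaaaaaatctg
Loxl4: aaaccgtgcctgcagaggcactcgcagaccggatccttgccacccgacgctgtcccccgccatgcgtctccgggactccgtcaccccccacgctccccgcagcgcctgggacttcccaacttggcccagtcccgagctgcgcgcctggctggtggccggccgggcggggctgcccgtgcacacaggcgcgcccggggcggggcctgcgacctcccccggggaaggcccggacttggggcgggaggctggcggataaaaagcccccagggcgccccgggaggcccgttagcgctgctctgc

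H3K4me3 was already present at nearly all of these genes before differentiation. A peak lay in the window of 30 of the 32 genes in both day 0 libraries, against 52.2% of all protein-coding genes. On day 3 the count was 31 of 32 (61.6% of all genes) and on day 10 it was again 31 of 32 (56.8%). In all 6 H3K4me3 lists together 30 of 32 genes had a peak (51.9% of all genes), and every hydroxylase, chaperone, propeptide-processing and secretion gene was among them. None of the 32 gained a peak, in the sense of no peak in either earlier library and a peak in both later ones, from day 0 to day 3 (3.2% of all genes), from day 3 to day 10 (0.0503%) or from day 0 to day 10 (1.15%). None lost a peak in the same 3 comparisons, where the shares of all genes were 0.00914%, 0.58% and 0.00457%. The day 0 libraries had 30 and 31 of the genes with a peak, those of day 3 had 31 each, and those of day 10 had 31 and 32. Exact two-sided permutation tests of these counts gave p = 1 for day 0 against day 3, p = 1 for day 3 against day 10 and p = 0.667 for day 0 against day 10, and 0.333 is the smallest p that 2 libraries against 2 can give.

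The 2 exceptions were Colgalt2 and Loxl2. Colgalt2 encodes the second of the enzymes that add galactose to hydroxylysine. Its H3K4me3 covered length, the number of bases of the gene window under peaks, was 0 and 820 bp in the 2 day 0 libraries, 2755 and 1824 bp on day 3, and 2039 and 2335 bp on day 10. Both libraries of each later day were thus above both day 0 libraries, and the day 0 library with no peak was also the shortest H3K4me3 list, with 13765 peaks against 20863 in the other. The region at its nearest gene end was chr1:152399407-152401737. Loxl2, a member of the lysyl oxidase family, had no H3K4me3 peak in 5 of the 6 lists. Its one peak, 351 bp at chr14:69609212-69609562, was in day 10 replicate 2, which was the longest list with 29022 peaks, and it carried a fold enrichment of 4.73 in the submitters' list. The related Lox, Loxl1, Loxl3 and Loxl4 had peaks in all 6 lists.

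**Figure D1:**
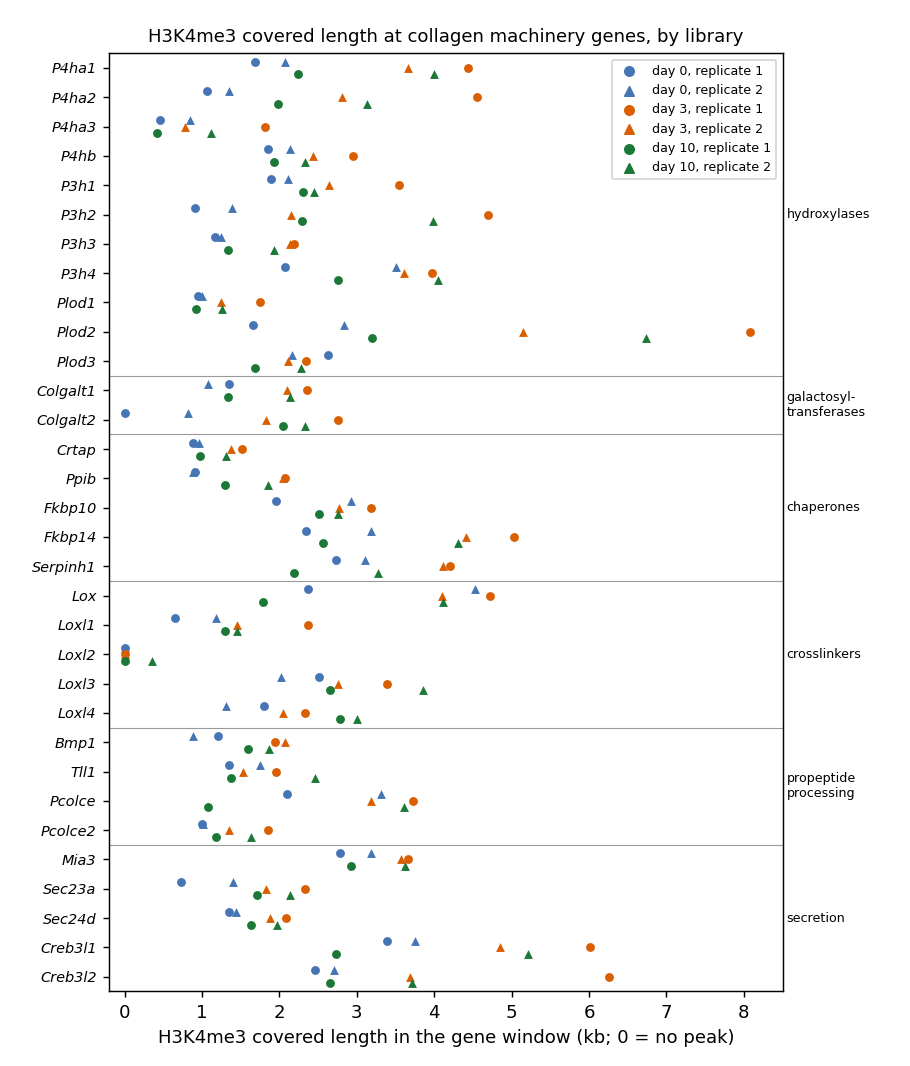
H3K4me3 covered length of each of the 32 genes in kb (x axis), 1 point per library, coloured by day, with circles for replicate 1 and triangles for replicate 2. Plod2 reached 8.08 kb in day 3 replicate 1, and Loxl2 had no peak in 5 of the 6 lists.

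H3K4me3 covered length was larger on day 3 than on day 0 at most of the genes. It sums all peaks in the gene window, so a gene called longer need not have a longer single domain. In day 3 replicate 1, for example, P4ha2 had 5 peaks and P3h2 had 4. The strongest of these were 3521 and 2810 bp wide. Of the 30 genes with a peak in all lists, 24 were longer in both day 3 libraries than in either day 0 library, and 0 were shorter. The same held for 78.8% of 11366 genes with a peak in all lists, and 0.0616% were shorter, so the count at the collagen genes was close to that of genes at large. Lists also differed as wholes, since the median covered length over the 11366 genes was 1272.5 and 1621 bp on day 0, 2200 and 1888 bp on day 3, and 1423 and 2044 bp on day 10. Each covered length was therefore also divided by the median of its library. On that relative scale 11 of the 30 were longer (24.2% of all) and 4 shorter (25.1% of all). The median log2 ratio of day 3 to day 0 was 0.64 over the 30 genes and 0.51 over all 11366, and the second of these is the shift shared by genes at large.

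Among the hydroxylases the largest ratios of day 3 to day 0 were those of Plod2, P4ha1, P4ha2 and P3h2, which were longer on both scales. Plod2 encodes the lysyl hydroxylase of collagen telopeptides, whose product is needed for stable crosslinks. Its covered length was 1663 and 2829 bp on day 0, 8082 and 5150 bp on day 3, and 3197 and 6733 bp on day 10, a log2 ratio of 1.56 for day 3 over day 0 and 1.14 for day 10 over day 0. Divided by the library median, the day 0 values were 1.31 and 1.75, those of day 3 were 3.67 and 2.73, and those of day 10 were 2.25 and 3.29, with no overlap between day 0 and either later day. P4ha1 and P4ha2 encode catalytic subunits of prolyl 4-hydroxylase, which makes the hydroxyprolines that keep the triple helix stable. P4ha1 covered 1685 and 2066 bp on day 0, 4441 and 3659 bp on day 3, and 2236 and 3999 bp on day 10. P4ha2 covered 1064 and 1354 bp, then 4553 and 2804 bp, then 1975 and 3129 bp, a day 3 to day 0 log2 ratio of 1.61. Both genes lay above their day 0 values in all 4 later libraries, also relative to the median (for P4ha2 0.836 and 0.835 on day 0, then 2.07, 1.49, 1.39 and 1.53). P3h2, a prolyl 3-hydroxylase, covered 906 and 1388 bp on day 0, 4688 and 2143 bp on day 3, and 2286 and 3979 bp on day 10. Its day 3 libraries differed by more than the gap between days, and its relative values still did not overlap between day 0 and the later days.

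The remaining hydroxylases, and Colgalt1, gave smaller or no differences. P3h3, another prolyl 3-hydroxylase, covered 1165 and 1243 bp on day 0, 2193 and 2136 bp on day 3, and 1332 and 1927 bp on day 10, a log2 ratio of 0.85 for day 3 over day 0. P4hb, protein disulfide isomerase and the second subunit of prolyl 4-hydroxylase, had 1855 and 2132 bp, 2952 and 2430 bp, and 1929 and 2329 bp. It was longer on day 3 than on day 0 in bp, but its relative values overlapped. Plod3, which acts both as lysyl hydroxylase and as glycosyltransferase, covered 2622 and 2166 bp on day 0, 2337 and 2110 bp on day 3, and 1683 and 2272 bp on day 10. The days overlapped in bp, and relative to the library median Plod3 was the reverse of Plod2, at 2.06 and 1.34 on day 0 against 1.06 and 1.12 on day 3. P4ha3, the third catalytic subunit, had short covered lengths, from 423 bp in day 10 replicate 1 to 1809 bp in day 3 replicate 1. Its days overlapped. P3h1, P3h4 and Plod1 were longer on day 3 in bp with overlapping relative values, and the log2 ratio turned to −0.60 for P3h1 with the nearest gene only and to −0.57 for P3h4 by summit or nearest gene. Colgalt1, the main hydroxylysine galactosyltransferase, was longer on day 3 on both scales. It covered 1346 and 1076 bp on day 0, 2352 and 2100 bp on day 3, and 1331 and 2137 bp on day 10. Its relative values were 1.06 and 0.664 on day 0 against 1.07 and 1.11 on day 3, so day 0 replicate 1 lay just below day 3 replicate 1. P3h1 shares its promoter region with AU022252, and P3h4 lies in 1 region of 6214 bp with Fkbp10 (chr11:100411664-100417877), so the H3K4me3 of these pairs cannot be told apart in the lists. Regions at P3h3, Plod3, Bmp1 and Pcolce likewise lay within 1 kb of Gpr162, Znhit1, Sftpc and Fbxo24.

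**Figure D2:**
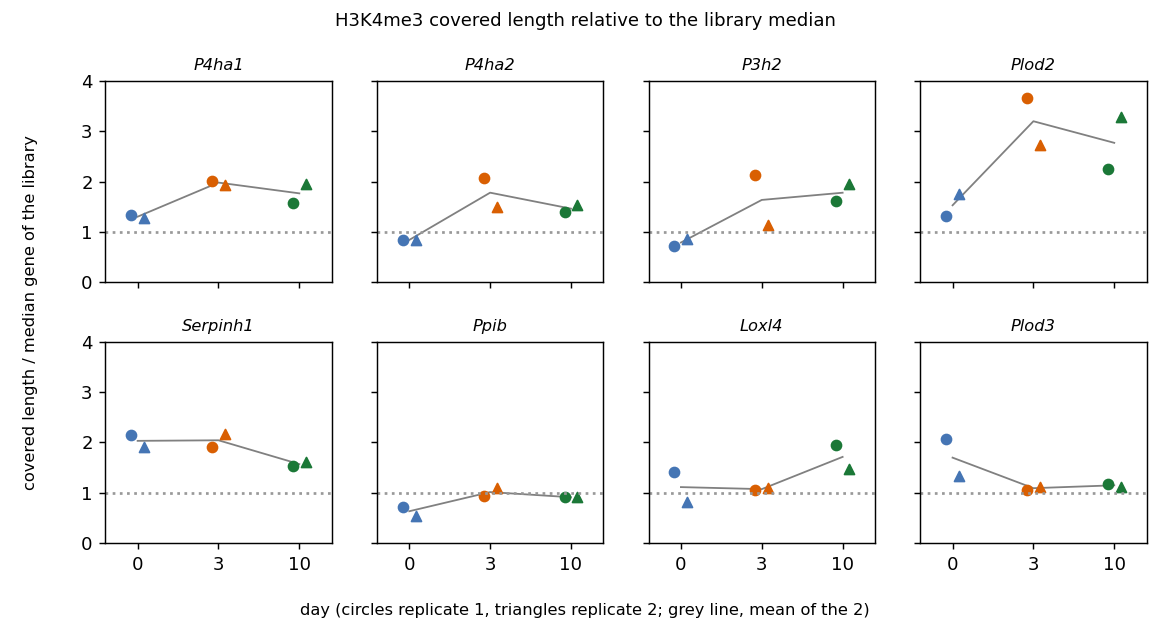
H3K4me3 covered length of 8 of the genes divided by the median of the same library (y axis) on days 0, 3 and 10, with circles for replicate 1, triangles for replicate 2 and a line through the mean of both. Plod2, P4ha1, P4ha2 and P3h2 were above their day 0 values on both later days, and Plod3 was below its day 0 values on day 3.

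Among the 5 chaperones and foldases, 4 were longer on day 3 than on day 0 in bp (78.8% of all 11366 genes). Relative to the median 2 were, Ppib and Fkbp14 (24.2% of all). Ppib encodes cyclophilin B, a prolyl isomerase that forms a complex with the products of Crtap and P3h1. It covered 913 and 881 bp on day 0, 2067 and 2048 bp on day 3, and 1294 and 1858 bp on day 10, with a day 3 to day 0 log2 ratio of 1.20 and replicates that lay close together on days 0 and 3. On the relative scale the day 0 values of Ppib were 0.717 and 0.543, those of day 3 were 0.94 and 1.08, and both of day 10 were 0.909, so that it went from below to about the median gene. Crtap covered 889 and 955 bp, then 1514 and 1373 bp, then 975 and 1308 bp, and its relative values for day 0 and day 3 overlapped. Fkbp14, a foldase of the endoplasmic reticulum, covered 2342 and 3176 bp on day 0, 5035 and 4405 bp on day 3, and 2564 and 4308 bp on day 10. Part of that region also lies at the neighbouring Plekha8. Serpinh1 encodes HSP47, the collagen-specific chaperone, and covered 2733 and 3109 bp, then 4208 and 4107 bp, then 2186 and 3276 bp. Its relative values for day 0 and day 3 overlapped, and it was not called longer on day 3 with equal numbers of top peaks. Fkbp10 overlapped between day 0 and day 3, with 1956 and 2925 bp against 3184 and 2771 bp, and was shorter on day 3 relative to the median (1.54 and 1.80 against 1.45 and 1.47).

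From day 3 to day 10 all 5 chaperones were shorter in bp, a call that not every alternative kept. In both day 10 libraries 9 of the 30 genes were shorter than in either day 3 library (20.9% of all 11366 genes) and 1 was longer (0.264% of all). The 9 were all 5 chaperones and foldases, P4hb, P3h1, P3h3 and Bmp1. Relative to the library median 10 were shorter (14.6% of all) and 4 longer (15.8% of all), with Crtap, Ppib, Fkbp14 and Serpinh1 among the 10 and Fkbp10 overlapping. Of the 5, Fkbp10 was not called by summit, Fkbp10 and Fkbp14 were not called with the nearest gene only or at the gene ends only, Serpinh1 not with equal numbers of top peaks, and Crtap not without the 1 kb extension. Ppib was shorter under each of these alternatives, and P3h1 reversed to log2 ratios of 0.0898 with the nearest gene only and 0.0115 at the gene ends only. Serpinh1 had relative values of 1.91 and 2.18 on day 3 and of 1.54 and 1.60 on day 10. The count of shorter genes rose when day 10 replicate 2 or day 3 replicate 2 was left out, so it depends on which libraries enter. Each omission leaves 1 library for its day, and no share of all genes was counted for it. The median log2 ratio of day 10 to day 3 was −0.37 over the 30 genes and −0.24 over all genes.

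The gene that was longer was Loxl4, a lysyl oxidase relative. Its covered length was 1800 and 1310 bp on day 0, 2328 and 2046 bp on day 3, and 2788 and 2999 bp on day 10, a log2 ratio of 0.40 for day 10 over day 3 and 0.90 for day 10 over day 0. The 3 days did not overlap in bp, and relative to the median day 10 (1.96 and 1.47) stayed above day 3 (1.06 and 1.08). The added length lay downstream of the transcript start, into the gene, which is on the minus strand: the peak reached position 42611479 and 42611570 of chromosome 19 in the day 3 lists and 42610736 and 42610808 in the day 10 lists. Within 1 kb of the gene's ends alone the log2 ratio was −0.04. Lox, which encodes the founding lysyl oxidase, had 2368 and 4526 bp on day 0, 4718 and 4097 bp on day 3, and 1786 and 4114 bp on day 10, and the 3 days overlapped. Loxl1, a lysyl oxidase of elastic fibres, had 649 and 1177 bp, 2362 and 1445 bp, and 1296 and 1450 bp, and both later days were above day 0. Loxl3 shares regions with Dok1, Htra2 and Aup1, which cannot be told apart from its own, and covered 2513 and 2017 bp on day 0 and 3388 and 2754 bp on day 3.

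Of the 4 propeptide-processing genes 2, Bmp1 and Pcolce2, were longer on day 3 than on day 0 in bp (78.8% of all 11366 genes). Tll1, a tolloid-like metalloproteinase, covered 1349 and 1744 bp on day 0, 1958 and 1523 bp on day 3, and 1372 and 2465 bp on day 10, and all 3 days overlapped in bp, though it was shorter on day 3 than on day 0 relative to the median (1.06 and 1.08 against 0.890 and 0.807). Pcolce, an enhancer of C-proteinase activity, covered 2099 and 3313 bp, 3725 and 3177 bp, and 1082 and 3613 bp. Its day 10 libraries stood furthest apart of the group, and the low one was the shorter list of that day. Bmp1, the procollagen C-proteinase itself, covered 1206 and 886 bp on day 0, 1948 and 2077 bp on day 3, and 1587 and 1864 bp on day 10. Bmp1 was above day 0 on both later days in bp, and its relative values overlapped. Pcolce2, a relative of Pcolce, covered 994 and 1018 bp, 1853 and 1343 bp, and 1182 and 1628 bp.

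All 5 secretion genes were longer on day 3 than on day 0 in bp (78.8% of all 11366 genes). Of these, 2, Sec23a and Creb3l2, were also longer relative to the median (24.2% of all). Sec23a encodes a COPII coat subunit whose loss impairs collagen export, and it covered 727 and 1402 bp on day 0, 2330 and 1828 bp on day 3, and 1705 and 2136 bp on day 10. Part of its region lies at Gemin2, and with peaks assigned by their summit the ratio of day 3 to day 0 was −0.22 on the log2 scale. Creb3l2 covered 2453 and 2704 bp on day 0, 6261 and 3686 bp on day 3, and 2650 and 3708 bp on day 10. Creb3l1 had 3385 and 3752 bp, 6007 and 4855 bp, and 2728 and 5208 bp, with the widest gap between replicates on day 10. Mia3 differed least of the 5 in proportion, from 2779 and 3188 bp to 3658 and 3575 bp and then 2921 and 3617 bp, and was shorter on day 3 than on day 0 relative to the median. Sec24d, another coat subunit, covered 1345 and 1442 bp, 2084 and 1878 bp, and 1629 and 1973 bp. It was not called longer on day 3 with equal numbers of top peaks or at the gene ends only.

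Across the whole interval, 15 of the 30 genes were longer in both day 10 libraries than in either day 0 library (22.3% of all 11366 genes) and 0 were shorter (0.501%). They were P4ha1, P4ha2, P3h1, P3h2, P3h3, Plod2, Crtap, Ppib, Loxl1, Loxl3, Loxl4, Bmp1, Pcolce2, Sec23a and Sec24d. With the nearest gene only the log2 ratio turned to −2.17 for Loxl3 and to −0.51 for P3h1, and with equal numbers of top peaks it turned to −0.77 for Sec24d. Relative to the median 9 were longer (18.7% of all) and 2, Plod3 and Serpinh1, shorter (18.6%). The count of 15 rose without day 10 replicate 1, the shorter list of its day with 15219 peaks. That omission leaves 1 library for day 10, and no share of all genes was counted for it. The 3 day comparisons share libraries, so their counts are not independent of each other.

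Individual regions added detail to the gene totals. Overlapping H3K4me3 peaks of the lists merged into 64 distinct regions in the windows of the 32 genes. Of these, 34 were in all 6 lists, with a median width of 2435 bp, and 22 were in 1 list only, with a median width of 285.5 bp. Of the 22 single-list regions 14 came from day 3 replicate 1. Regions with no peak in either day 0 list and a peak in both day 3 lists numbered 2, against 6.78% of the 23953 regions in all gene windows. One of them lay at Plod2, chr9:92538068-92539022 (955 bp), at the gene end next to the main region chr9:92540328-92547196. The other lay within Creb3l2, chr6:37430372-37432388 (2017 bp when merged over lists), centred 10768 bp downstream of the transcript start. Its day 3 peak ran from 10009 to 11776 bp downstream in replicate 1. In replicate 2 it ran only from 11031 to 11345 bp, with a −log10 q of 3.56. Both regions were also in day 10 replicate 2 and not in day 10 replicate 1, the shorter list. No region was lost from day 0 to day 3 (0.0125% of all regions), and none was gained or lost from day 3 to day 10 (0.109% and 1.42%) or from day 0 to day 10 (1.85% and 0.0209%). Regions far from the ends that persisted in all 6 lists were found in Mia3 (chr1:183344694-183346365, centred 24036 bp downstream of the start) and in Creb3l1 (chr2:92006975-92009174, 16096 bp from the nearest gene end).

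RUNX2 peaks appeared at these genes on day 3 only in these lists. Both day 3 libraries had a RUNX2 peak in the windows of 31 of the 32 genes, against 58.4% of all protein-coding genes. On day 0 and on day 10 none of the 32 had one in either library, against 0.0274% and 0.0183% of all genes with a peak in both. The exact two-sided permutation test gave p = 0.333 for day 0 against day 3 and for day 3 against day 10, the smallest value possible. The day 0 and day 10 RUNX2 lists held 97 to 108 peaks each and the day 3 lists 19319 and 16859, and the part of list size in this count was not tested. Of genes with H3K4me3 in both day 3 libraries, 94.2% had a RUNX2 peak in both, and among the collagen genes this was 31 of 31. Loxl2, without H3K4me3 on day 3, was also the gene without RUNX2.

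RUNX2 regions coincided with H3K4me3 domains. In the windows of the 32 genes 49 distinct RUNX2 regions were found, 44 of them in both libraries, with a median width of 1483 bp (range 286 to 5269 bp). Of these 44 regions 42 overlapped an H3K4me3 peak of both day 3 libraries, against 98.6% of all such regions in gene windows, and 39 overlapped H3K4me3 in all 6 lists. The other 2 lay in P4ha3, 3068 bp downstream of the start, and in P4ha2, 12517 bp downstream, and each met H3K4me3 in day 3 replicate 1 only of that day. At the Plod2 region that appeared on day 3 there was RUNX2 in replicate 2 only (chr9:92538497-92538873), and at the one within Creb3l2 in replicate 1 only (chr6:37432005-37432258).

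**Figure D3:**
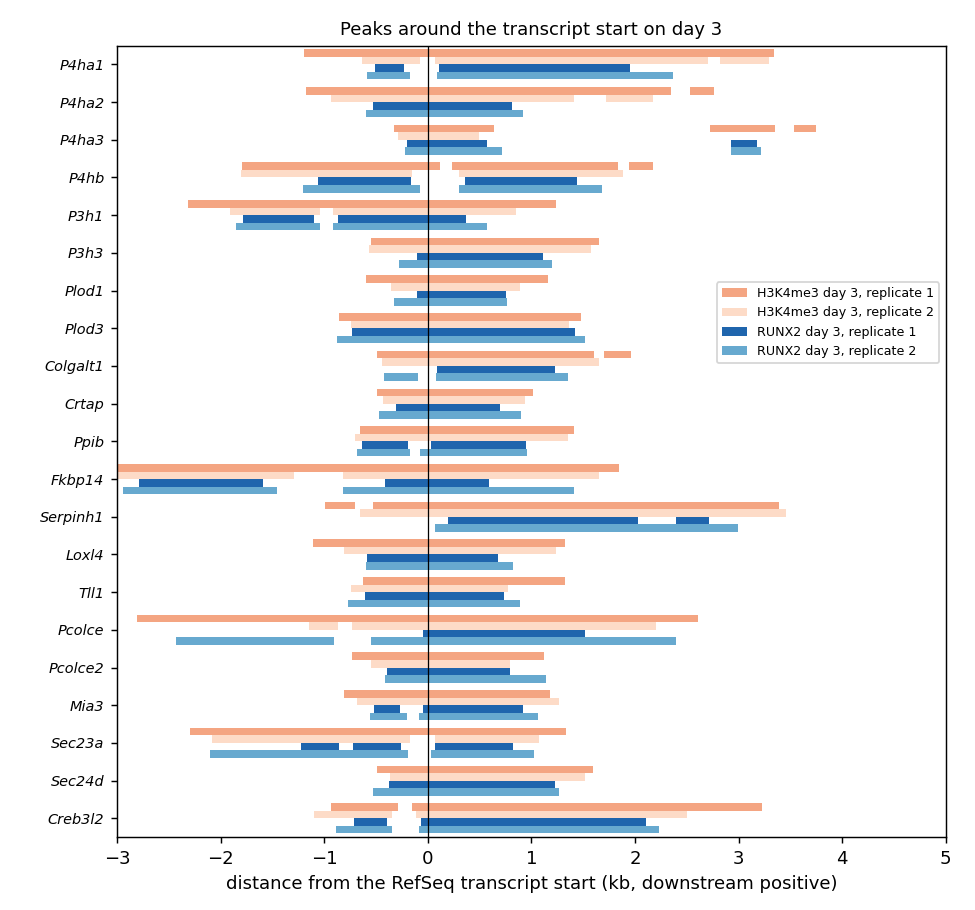
Day 3 peaks around the RefSeq transcript start (x axis, kb, downstream positive, drawn from −3 to 5 kb) of the 21 genes with a listed start, with H3K4me3 in orange and RUNX2 in blue, 1 bar per library. RUNX2 bars overlap H3K4me3 bars at every gene drawn. At P4ha1, P4hb, Colgalt1, Serpinh1 and Sec23a the RUNX2 bars leave the drawn start uncovered in both libraries. The second listed start of Colgalt1, not drawn, was covered by RUNX2 in both.

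RUNX2 peaks were placed relative to the transcript start. Where a gene had more than 1 listed start, the one with the most H3K4me3 on day 3 was used. At Colgalt1 the 2 starts tied, with 300 bases of each promoter under H3K4me3 in both day 3 lists, and the first was used. The summit of the strongest RUNX2 peak was downstream of the start in 19 of 21 genes in each library, at a median of 306 bp in replicate 1 and 318 bp in replicate 2. Strongest H3K4me3 summits were downstream in 13 and 16 of the 21 genes, at medians of 178 and 155 bp. No share of all genes stands beside these counts, and the window held 1 kb upstream of a gene but the whole gene downstream. Summits agreed between the libraries at some genes and not at others. At P4ha1 RUNX2 peaks flanked the start, with summits at −350 and 576 bp in replicate 1 and at −349 and 576 bp in replicate 2. P4hb had summits at −412 and 721 bp and at −411 and 721 bp, and Ppib at −394 and 328 bp in both. Mia3 had 3 RUNX2 peaks, with summits at −393, 372 and 24426 bp in both libraries, the last inside its distant H3K4me3 region. At P4hb the upstream peak was the stronger in replicate 1 and the downstream peak in replicate 2, and at Fkbp14 the strongest summit was at 255 bp in replicate 1 and at −2375 bp in replicate 2. Sec23a shared a summit at 444 bp, while its upstream summits were at −502 and −1082 bp in replicate 1 and at −1602 bp in replicate 2. Pcolce had a peak with its summit at −1954 bp in replicate 2 only, and Serpinh1 one at 2603 bp in replicate 1 only. The 300-base promoter was overlapped by RUNX2 in both day 3 lists at 19 of 21 genes (52.0% of 17492 genes in the promoter table) and by H3K4me3 in all 6 lists at 18 of 21 (43.9%). Serpinh1 had RUNX2 only beyond this window, from 196 bp downstream of the start in replicate 1 and from 66 bp in replicate 2.

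**Figure D4:**
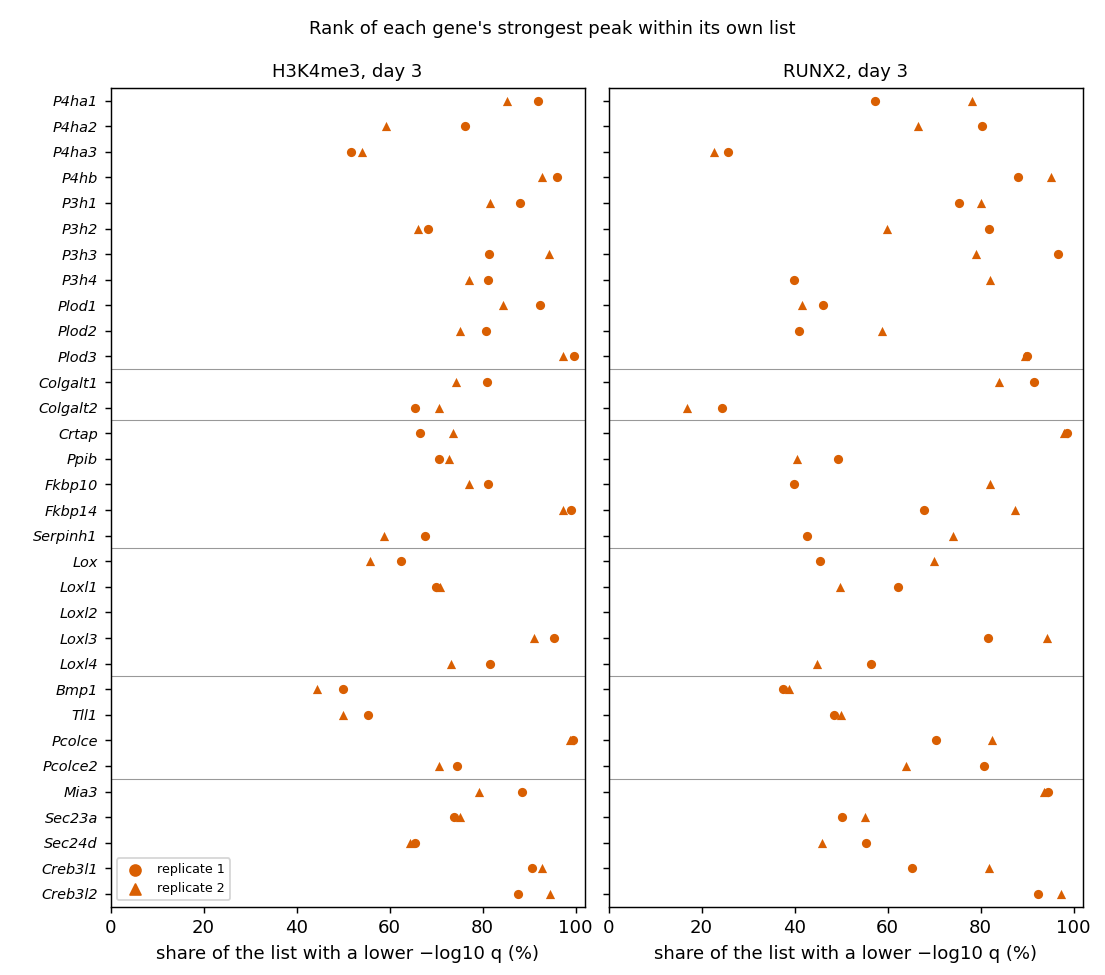
Rank of the strongest day 3 peak of each gene within its own list, as the percentage of the list's peaks with a lower −log10 q (x axis), for H3K4me3 (left) and RUNX2 (right), with circles for replicate 1 and triangles for replicate 2. Crtap ranked highest for RUNX2 in both libraries and Colgalt2 lowest, and Loxl2 has no points.

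Peak strength differed widely within the machinery. Fold enrichment and −log10 q are the submitters' own values per peak, and they were used to rank peaks within a list. A −log10 q of at least 5 also served as an alternative peak threshold. Crtap, which encodes the cartilage-associated partner of prolyl 3-hydroxylase, had RUNX2 folds of 11.7 and 20.4, and 98.6% and 97.9% of the peaks in the 2 lists ranked lower. Its H3K4me3 peaks ranked in the middle on day 3, with 66.4% and 73.6% of the lists below them. For Mia3 94.5% and 93.7% of the RUNX2 peaks ranked lower, and for Creb3l2 92.3% and 97.4%. High ranks in 1 of the lists were those of P3h3 (96.7% and 78.9%), P4hb (88.0% and 95.2%) and Loxl3 (81.5% and 94.3%). At the other end were Colgalt2 with 24.3% and 16.8%, P4ha3 with 25.7% and 22.6%, and Bmp1 with 37.5% and 38.8%. The median over the 31 genes was 62.2% in replicate 1 and 74.1% in replicate 2. The libraries differed most for the shared peak of P3h4 and Fkbp10 (39.8% and 82.1%) and for Serpinh1 (42.7% and 74.1%).

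H3K4me3 ranks had a different order. Plod3 was highest in both day 0 lists and in day 3 replicate 1, with 99.9%, 98.0% and 99.7% of peaks below it. Pcolce was highest in day 3 replicate 2 (98.9%) and day 10 replicate 2 (99.1%), and Creb3l2 in day 10 replicate 1 (99.0%). P4ha3 was lowest in day 0 replicate 1 (3.05%) and in day 10 replicate 1 (10.7%), and Bmp1 in both day 3 lists (49.9% and 44.4%). Colgalt2 was lowest in day 0 replicate 2 (21.9%), the one day 0 list in which it had a peak, and stood at 65.4% and 70.7% on day 3.

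Other genes of the pathway were counted in the same way. Of 48 such genes, from fibrillar collagens to general folding factors, COPII subunits and stress sensors, 46 had H3K4me3 in all 6 lists (51.9% of all genes) and 47 had RUNX2 in both day 3 lists (58.4%). From day 0 to day 3, 38 of the 46 were longer (78.8% of all genes with a peak in all lists), from day 3 to day 10 15 were shorter (20.9%), and from day 0 to day 10 8 were longer (22.3%). Tll2, a relative of Tll1, was the one gene that gained H3K4me3 from day 0 to day 3, with 0 and 0 bp on day 0, 456 and 243 bp on day 3, and 0 and 812 bp on day 10, and it had no RUNX2 peak. Col3a1 was missing only from day 10 replicate 1. Col2a1, the main cartilage collagen and a substrate of the enzymes described here, covered 1926 and 2183 bp on day 0, 5461 and 4958 bp on day 3, and 3668 and 5624 bp on day 10. Both later days lay above day 0, whereas Col1a1 overlapped between days 0 and 3 (3465 and 6332 bp against 7875 and 6319 bp).

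The cells were checked by marker genes. Of 6 chondrogenic genes 5 had H3K4me3 in all 6 lists, and the sixth, Acan, had none on day 0 and 5867, 4695, 4586 and 5235 bp in the later lists. None of the 3 skeletal muscle genes Myod1, Myog and Des had a peak in any list. Of the 3 blood genes Ptprc and Cd68 gained an H3K4me3 peak in the gene window from day 0 to day 3. On day 3 Ptprc had 500 and 614 bp and Cd68 had 190 and 172 bp. The shortest peaks of these 2 lists were 214 and 215 bp, so the peaks counted at Cd68 lay partly outside its window. Both genes also had a RUNX2 peak in both day 3 lists. Spi1, the remaining blood gene, had H3K4me3 in 5 of the 6 lists. Endothelial Kdr, adipocyte Pparg and neuronal Tubb3, 1 of 3 genes in each list, had H3K4me3 in all 6 lists and RUNX2 in both day 3 lists. Epithelial Epcam and adipocyte Plin1 had H3K4me3 in 5 of the 6, as well as RUNX2 in both day 3 lists. Pecam1, Cdh1 and Rbfox3 had H3K4me3 in some lists and no RUNX2 peak, whereas Cdh5, Krt5, Adipoq and Snap25 had no peak in any list. The part of these broad day 3 lists in the lengths at the collagen genes was not tested.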

How the data were processed

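H3K4me3 and RUNX2 ChIP-seq libraries of ATDC5 cells were represented by 12 narrowPeak lists, 1 per library, with 2 libraries per antibody and day. The submitters' processing notes list HISAT2 2.2.0 and MACS2 beside Trim Galore and FastQC. Their settings, and the control of each list, are not known here. The authors deposited for each peak a score, a fold enrichment as a ratio, −log10 p and −log10 q values and a summit offset. The notes name GRCm39, but the coordinates matched GRCm38: 34.2% to 65.8% of H3K4me3 summits lay within 1 kb of a RefSeq GRCm38.p6 promoter start, against 2.44% to 3.03% after a shift of 20 kb. Coordinates are therefore given as GRCm38.

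Read depth is unknown, and list sizes ranged from 13765 to 29022 peaks for H3K4me3 and from 97 to 19319 for RUNX2. A gene had a peak where at least 1 bp overlapped its RefSeq span extended by 1 kb. Presence in both libraries, gain and loss were counted without a test and set beside the same share of all 21887 protein-coding genes. Counts per library were compared by exact two-sided permutation. Covered length was added after the data had been seen and compared over 11366 genes. "Longer" means both later libraries above both earlier ones. The 32 genes, the lists and the rules were chosen with earlier results of these data known, and all 32 genes are named. Promoter sequences to print were chosen after their motif matches and peaks had been seen. Scripts were tested on simulated data. Python 3.11.15, numpy 2.4.6, pandas 2.3.3, scipy 1.17.1 and matplotlib 3.10.9 were used. Alternatives covered window size, peak threshold, list length, overlap rule, gene assignment, scaling and omitted libraries.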

Additional observations from a re-analysis of the deposited data

How the results depend on the processing

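Of the alternatives to the counts over all 32 genes, 345 were classed as unchanged and 32 were not. A count was classed as changed only where it moved beyond a fixed ratio or to or from 0, so unchanged does not mean equal. With the nearest gene only, P3h1, P3h4, Fkbp14, Loxl3 and Sec23a were no longer called longer from day 0 to day 3. That count was still classed as unchanged. Differences per library were classed as changed only where their sign reversed, so a change in size alone did not count. The 345 include 6 and 2 alternatives with a replicate block, which cannot move a difference of means. They also include other cases that could not change. Peak counts of a day stay the same when a library of another day is left out. RUNX2 counts of 0 on days 0 and 10 cannot rise under a stricter peak filter. The counts of 0 gained or lost genes became 2 gained (Plod2 and Fkbp14) from day 0 to day 3 and 1 lost (Fkbp14) from day 3 to day 10 with windows at the gene ends only. With equal numbers of top peaks 1 gene was gained (Colgalt2) and 1 lost (Bmp1) from day 0 to day 3, 1 was gained (Bmp1) from day 3 to day 10 and 1 (Colgalt2) from day 0 to day 10. With a peak in either library counted, Loxl2 alone was gained in the last 2 comparisons, 1 gene each. Leaving out each library in turn gave 0 to 1 gained genes in each of the 3 comparisons. The differences in genes with an H3K4me3 peak per library, 0.5, 0.5 and 1, turned to −0.5 (day 3 minus day 0, summit in the window), −1.5 (the same, nearest gene only), −1.5 (day 10 minus day 3, gene ends only) and −0.5 (day 10 minus day 0, nearest gene only).

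Counts of genes with a longer or shorter H3K4me3 covered length moved most. Relative to the library median, a scaling added after the data were seen, they were 11 longer and 4 shorter from day 0 to day 3, 4 longer from day 3 to day 10, and 9 longer and 2 shorter from day 0 to day 10. At the gene ends only, 0 were longer from day 3 to day 10. Leaving out each library in turn gave 0 to 1 shorter from day 0 to day 3, 1 to 4 longer and 9 to 28 shorter from day 3 to day 10, and 15 to 27 longer and 0 to 7 shorter from day 0 to day 10. Ratios of genes called longer or shorter in a comparison changed sign on the log2 scale in several cases. Those of Loxl3 (−2.17, day 10 over day 0, nearest gene only) and Loxl4 (−0.0353, day 10 over day 3, gene ends only) did so. Sec24d did so as well (−0.77, day 10 over day 0, equal numbers of top peaks). P3h1 gave −0.60 and −0.51 for days 3 and 10 over day 0 and 0.0898 for day 10 over day 3 with the nearest gene only, and 0.0115 for the last with gene ends only. P3h4 (−0.57) and Sec23a (−0.22) changed sign for day 3 over day 0 by summit and by nearest gene. Some ratios of genes not called in a comparison changed sign too. With equal numbers of top peaks P4ha3 gave −0.72 for day 3 over day 0, against 1.00 in the main setting. Tll1 gave −1.34 for day 10 over day 3, against 0.14. The cause of these shifts was not tested.

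A replicate block by number cannot move the differences per library, since a mean of paired differences equals the difference of the means. They were 31 and −31 in RUNX2 genes (exact paired p = 0.5, the smallest possible) and 0.5, 0.5 and 1 for H3K4me3. The labels do not say that a number marks a shared culture. Differences between replicate 1 and replicate 2 in log2 covered length correlated across 11366 genes at −0.02 for days 0 and 3, −0.27 for days 3 and 10, and 0.30 for days 0 and 10. Crossing the numbers of days 3 and 10, added for the negative value, likewise cannot move the differences of 0.5 and −31. Unknown depth and 2 libraries a day limit what can be called.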
